A study of Mus musculus with 7 samples.

Results

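Saa3, Chil3, Slpi, Vcan, Hp, F10, Ly6c2, Plac8, Arg1 and Serpinb2 are 10 of the 33864 genes listed in the single-cell tables of mouse pancreas, and are described here together as inflammatory monocyte genes. They were chosen with values of these tables in view, Saa3, Chil3 and Slpi for leading a monocyte-like cluster among the immune cells, so the levels of all 10 in immune cells and in all cells together are given as a description with no test. Their rows were read in each of the 3 count tables, for each mouse and each annotated cell cluster. Cells came from 7 C57BL/6 mice aged 2 months. The WT mice (n = 2) and the i4F mice (n = 3) drank doxycycline at 1 mg/ml with 7.5% sucrose for 7 days. The i4F mice carry a doxycycline-inducible transgene for the Yamanaka factors Oct4, Sox2, Klf4 and c-Myc, inserted in Pparg, and the transactivator rtTA in Rosa26, both heterozygous and not limited to a cell type. The CER mice (n = 2) were a model of pancreatitis: on 2 days they received caerulein, a peptide that drives enzyme secretion, at 100 µg/kg, 7 times a day at intervals of an hour. The labels give no doxycycline or sucrose for the CER mice, so CER and WT may differ in these as well as in caerulein.

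Classical monocytes leave the bone marrow through the chemokine receptor CCR2, carry high Ly6C on their surface, enter injured tissue and there give rise to macrophages. Among the 10 genes, Ly6c2 encodes Ly6C itself. Saa3 (serum amyloid A), Hp (haptoglobin, which binds free haemoglobin) and Slpi (an inhibitor of neutrophil elastase) encode secreted acute-phase or antiprotease proteins. Chil3 encodes a chitinase-like lectin secreted by macrophages and neutrophils, and Arg1 encodes arginase, which turns arginine into ornithine and urea. F10 encodes the coagulation protease factor X, and Serpinb2 an inhibitor of plasminogen activators. Vcan encodes the matrix proteoglycan versican, and Plac8 a small cysteine-rich protein of many immune and epithelial cells.

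The libraries held 4327 to 15138 cells and 15469018 to 64784216 UMIs (unique molecular identifiers, 1 for each captured transcript molecule), and a pair of libraries shared 3 to 39 cell barcodes. Levels are in CPM, the UMIs of a gene over all UMIs of the cells named on the usual scale of that unit, and their 95% intervals are exact Poisson intervals that cover counting error alone. Library i4F 3 stood apart from the other i4F libraries: it was the shallowest, with a median of 592 genes per cell, and 2.40% of its cells were in the macrophage-led cluster, against 29.8% and 33.3% in i4F 1 and i4F 2. Macrophage-led cells made up 1.04% and 6.61% of the WT libraries, and 46.2% and 39.1% of those of CER. The deposited annotation has no monocyte cluster, and several of its clusters named for macrophages or B cells were led by genes of other cells. They are therefore grouped by leading genes: macrophage-led (Macrophages_1 of each table and Macrophages_2 of CER, with Lyz2, C1qa or Mrc1), neutrophil-led (Macrophages_2 of i4F and Macrophages_3 of CER, with S100a8 and S100a9) and MHC II-led (Macrophages_2 of WT, Macrophages_3 of i4F and B_lymphocytes of CER, with H2-Aa and H2-Ab1). In the macrophage-led cells, 7 monocyte markers that include Ccr2 and F13a1 summed to 2322 to 5547 CPM in i4F, 1808 and 1827 CPM in CER and 1108 and 1572 CPM in WT, and 8 macrophage markers summed to 22996 to 36032 CPM in the 7 libraries.

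Promoter sequences were matched for 8 of the 10 genes in RefSeq on GRCm38.p6 (250 bases before to 50 bases after the start site), and those that hold a searched motif are shown. The motifs, searched on both strands, were a C/EBP-type site, TTNNGCAA, a kappaB-type site (GGG, any 3 bases, TTCC) and the TATA box, TATAAA. Capitals mark the matches.
Saa3, chr7:46715627-46715926, minus strand: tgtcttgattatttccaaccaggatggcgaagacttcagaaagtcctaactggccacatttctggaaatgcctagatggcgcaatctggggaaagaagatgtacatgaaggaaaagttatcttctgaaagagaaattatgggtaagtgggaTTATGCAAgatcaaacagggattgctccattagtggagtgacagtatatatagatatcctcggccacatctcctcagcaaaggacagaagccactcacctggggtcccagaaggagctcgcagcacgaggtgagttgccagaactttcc
Slpi, chr2:164356458-164356757, minus strand: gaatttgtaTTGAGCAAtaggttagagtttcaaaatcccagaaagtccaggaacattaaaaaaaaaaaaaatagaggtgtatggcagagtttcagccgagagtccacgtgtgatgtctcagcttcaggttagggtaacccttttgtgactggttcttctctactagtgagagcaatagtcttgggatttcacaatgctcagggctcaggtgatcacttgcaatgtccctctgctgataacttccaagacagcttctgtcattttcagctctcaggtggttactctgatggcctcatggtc
Serpinb2, chr1:107511173-107511472, plus strand: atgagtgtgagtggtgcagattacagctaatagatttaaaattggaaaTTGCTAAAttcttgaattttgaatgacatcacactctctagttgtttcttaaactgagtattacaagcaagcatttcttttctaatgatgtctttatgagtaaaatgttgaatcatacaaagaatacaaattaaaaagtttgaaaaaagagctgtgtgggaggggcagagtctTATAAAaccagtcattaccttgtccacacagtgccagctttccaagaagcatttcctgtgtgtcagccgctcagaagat
Chil3, chr3:106167515-106167814, minus strand: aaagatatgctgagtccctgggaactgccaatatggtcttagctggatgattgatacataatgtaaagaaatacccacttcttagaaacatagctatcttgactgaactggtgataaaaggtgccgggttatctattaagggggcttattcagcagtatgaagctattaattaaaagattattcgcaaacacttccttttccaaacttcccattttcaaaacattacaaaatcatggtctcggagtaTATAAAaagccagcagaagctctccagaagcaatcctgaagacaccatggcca
The C/EBP-type letters were found in 3 of the 8 promoters, against 10.8% of 27025 promoters of the same length. In Saa3 they lie 99 to 92 bases before the start site. The letters of the TATA box were found in 2 of 8, against 14.2% of all promoters, 29 to 24 bases before the start site in Serpinb2 and across the start site in Chil3. The kappaB-type letters were found in 0 of 8, against 5.52%. These matches describe the letters and not the binding of any factor. Ly6c2 and Ly6c1 were 93.5% identical over the last 300 bases of their transcripts, the end that these libraries sample, and Chil3 and Chil4 were 89.4% identical, so reads of either pair could be split or lost between the copies. Saa3 and Saa1 were 44.6% identical there, and Arg1 and Arg2 50%.

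The 10 genes did not share 1 main cell of origin. Macrophage-led cells were the largest source of UMIs for 6 of the genes in i4F 1, 7 in i4F 2 and 6 in each CER mouse, but for 4 in WT 1, 1 in WT 2 and 2 in i4F 3. In i4F 1, i4F 2 and the CER mice, Chil3, Arg1 and F10 were the genes most restricted to macrophage-led cells. Those cells gave 84.5% to 92.7% of Chil3 UMIs, 88.8% to 93.3% of Arg1 UMIs and 83.7% to 92.5% of F10 UMIs there. Stellate cells were the largest source of Vcan and Plac8 UMIs. Stellate cells, the collagen-making fibroblasts of the pancreas, gave 77.2% to 95.7% of Vcan UMIs over the 7 libraries and 44.6% to 82.9% of Plac8 UMIs. Hp came from both, with 43.4% to 89.3% of its UMIs in stellate cells and 25.0% to 43.0% in macrophage-led cells of i4F 1, i4F 2, CER 1 and CER 2. Slpi was a transcript of the mesothelium, the lining of the organ, which gave 95.3% and 91.2% of its UMIs in WT and 76.8% and 67.3% in CER. In i4F, with no mesothelial cluster annotated, its largest source was stellate cells in i4F 1 (57.9%), macrophage-led cells in i4F 2 (60%) and the immunoglobulin-led cluster in i4F 3 (52.5%). The plot of UMI sources shows these shares by mouse.

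**Figure D1:**
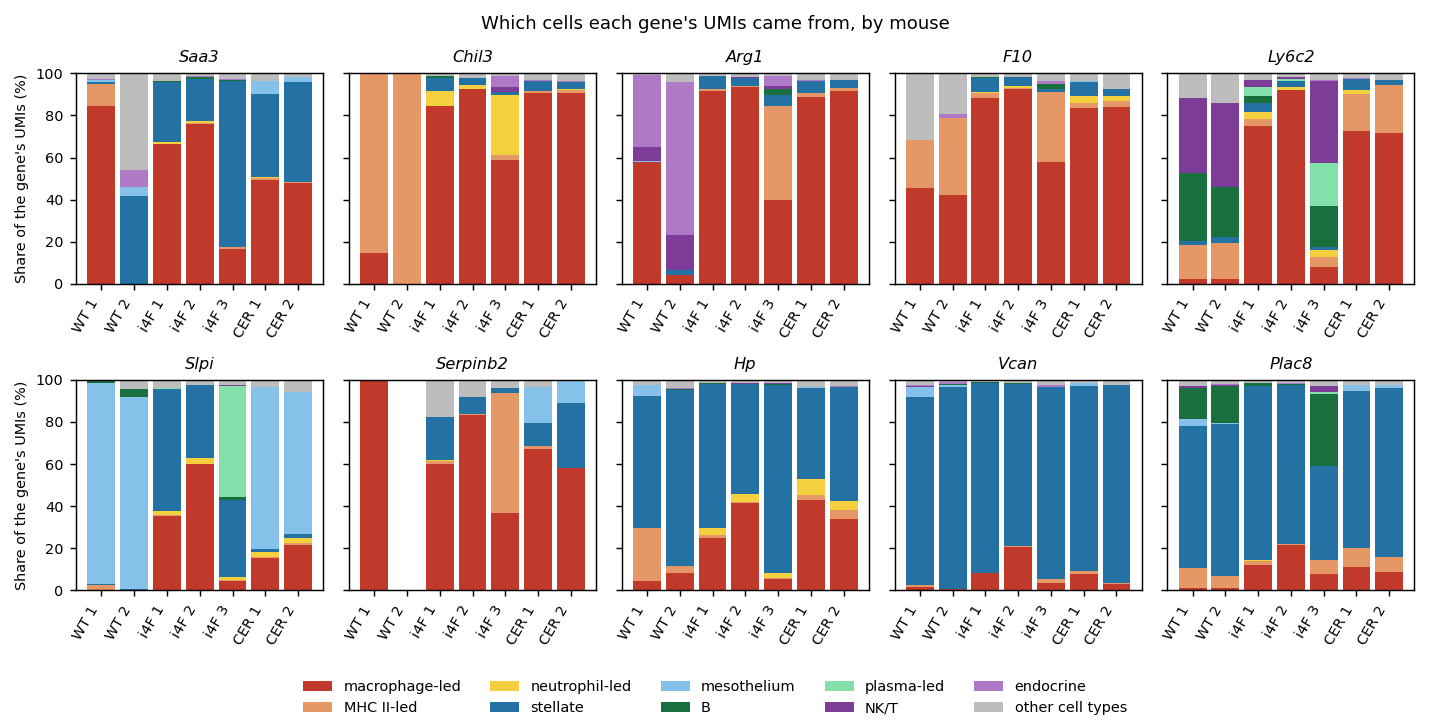
Share of each gene's UMIs (percent, y axis) by cell group (colours) in each mouse (x axis). Arg1, Chil3 and F10 bars of i4F 1, i4F 2 and the CER mice are mostly macrophage-led, stellate cells are the largest part of the Vcan and Plac8 bars, and the Slpi bars of WT and CER are mostly mesothelial; the empty Serpinb2 bar of WT 2 stands for 0 UMIs.

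Chil3 had the widest range in the macrophage-led cells. It stood at 1703, 10725 and 471 CPM in i4F 1, 2 and 3, at 534 and 680 CPM in CER 1 and 2, and at 338 and 0 CPM in WT 1 and 2. The level in i4F 2 was 6.30 times that in i4F 1 and 22.8 times that in i4F 3, so the i4F mean of 4300 ± 5598 CPM (SD, n = 3) describes no single mouse, and i4F 3 was below both CER mice. Arg1 was at 2969, 4214 and 543 CPM in i4F, 526 and 662 CPM in CER, and 1067 and 6.96 CPM in WT. Here again i4F 1 and 2 were above the other mice, while i4F 3 fell among the CER and WT values. Saa3 was at 1593, 3377 and 183 CPM in i4F, 449 and 463 CPM in CER, and 1298 and 0 CPM in WT.

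The WT values of these genes came from very few cells. WT 1 had 45 macrophage-led cells, and 2 of them held 99.5% of the cluster's Saa3 UMIs, 249 and 114 of 365. Without the 2 cells richest in each gene, WT 1 stood at 8.11 CPM of Saa3, 0 CPM of Chil3 and 244 CPM of Arg1. The barcodes of these cells were in no other library. In WT 2, 418 macrophage-led cells held 0 UMIs of Saa3 and Chil3, where 3 UMIs, taken as the limit that a count of 0 allows, would be 2.98 CPM of either. Saa3 in i4F 3 likewise rested on few cells: 2 of 183 held 85.4% of its UMIs, and it was at 27.1 CPM without them. In i4F 1, i4F 2 and the CER mice the 2 richest cells held at most 4.82% of Saa3 UMIs.

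Slpi, Hp, F10, Plac8, Ly6c2, Vcan and Serpinb2 were higher in the macrophage-led cells of each i4F mouse than in those of the WT and CER mice, 7 of the 10 genes, against 6.54% of the 12705 genes with a mean of at least 1 CPM there. These cells are among those that chose the genes, and nothing is read from the count. Slpi was at 794, 2133 and 644 CPM in the macrophage-led cells of i4F, at 166 and 134 CPM in CER, and at 60.5 and 8.95 CPM in WT. The lowest i4F mouse was 3.87 times the highest CER mouse. Hp was at 336, 1242 and 280 CPM in i4F, against 59.4 and 71.7 CPM in CER and 74.7 and 82.5 CPM in WT. F10 was at 235, 620 and 171 CPM in i4F, 25.8 and 24.6 CPM in CER, and 71.1 and 23.9 CPM in WT, and its lowest i4F mouse was 6.62 times its highest CER mouse. Plac8 was at 374, 826 and 730 CPM in i4F, at 81.2 and 87.5 CPM in CER, and at 114 and 25.9 CPM in WT. Its level in i4F 2 was 1.13 times that in i4F 3, so i4F 3 was not low for this gene.

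Ly6c2, the surface antigen by which inflammatory monocytes are recognised, was at 71.6, 405 and 96.6 CPM in the macrophage-led cells of i4F, 18.3 and 21.8 CPM in CER, and 14.2 and 3.98 CPM in WT. The lowest i4F mouse was 3.28 times the highest CER mouse. Vcan was at 176, 467 and 72.0 CPM in i4F, 40.4 and 19.5 CPM in CER, and 60.5 and 11.9 CPM in WT, so that i4F 3 and WT 1 differed little. Serpinb2 was the scarcest of the genes in these cells, at 51.4, 167 and 37.0 CPM in i4F and 11 and 4.09 CPM in CER, with 1 UMI in both WT mice together. Each i4F mouse was above both CER mice for the same 7 genes, against 19.3% of all genes, and Saa3, Chil3 and Arg1 were lower in i4F 3 than in at least 1 CER mouse. The plot of levels by mouse shows both patterns.

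**Figure D2:**
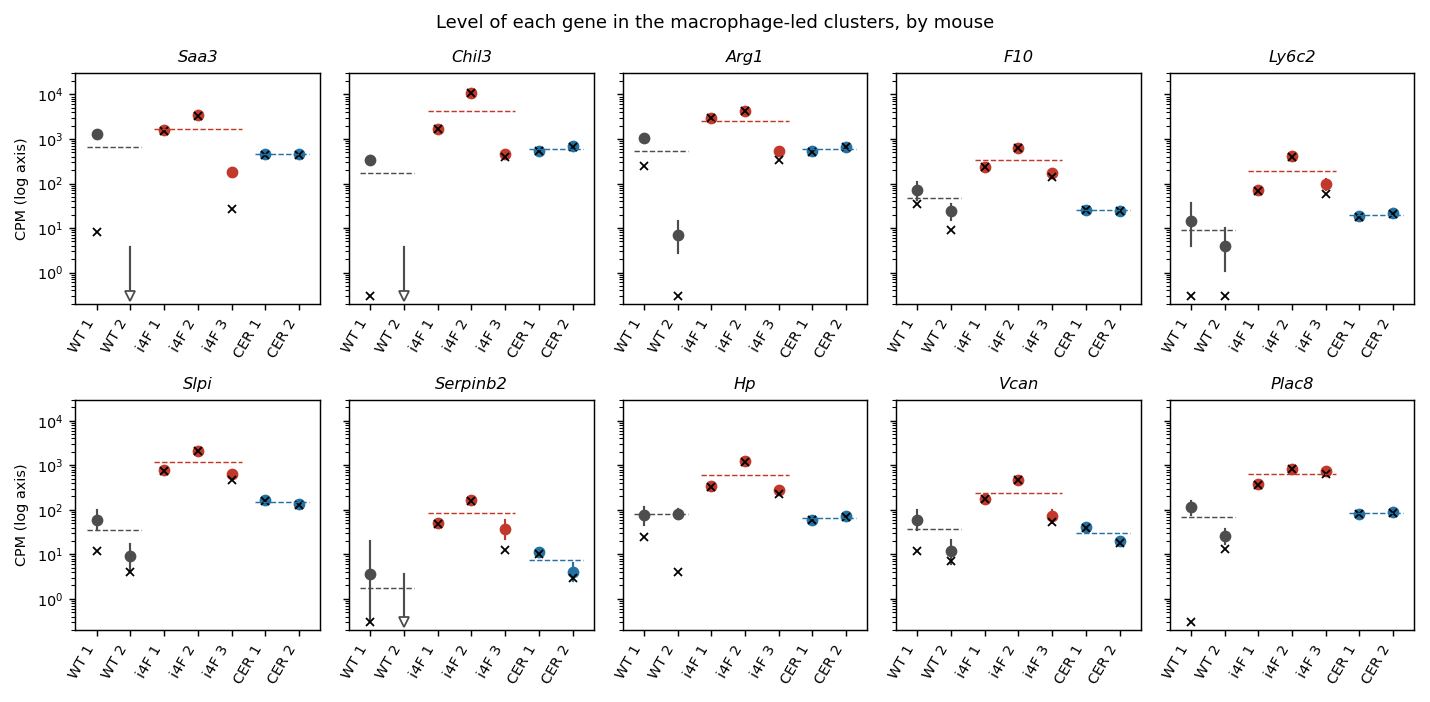
CPM (log axis) of each gene in macrophage-led cells of each mouse; vertical lines are exact 95% Poisson intervals, dashed lines the group means, crosses the level without the 2 richest cells, open triangles 0 UMIs, and values under 0.3 CPM are drawn at 0.3. The Saa3 and Chil3 crosses of WT 1 lie far below its points, at 8.11 and 0 CPM, while those of i4F 1, i4F 2 and CER lie on them.

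Single cells of i4F 1 and 2 carried several of the genes at the same time. Each cell was thinned to 1000 UMIs so that depth did not differ, and shallower cells were left out, among them 52 of 183 in i4F 3, 53 of 418 in WT 2, 276 of 2921 in i4F 1 and 203 of 2735 in i4F 2, and 100 to 380 per cluster in CER. At that depth a macrophage-led cell held a mean of 2.63 and 4.58 of the 10 genes in i4F 1 and i4F 2, 1.40 in i4F 3, 0.205 and 0.0301 in WT 1 and 2, and 0.944 to 1.29 in the 4 macrophage-led clusters of the CER mice. Cells with 5 or more of the genes made up 54.4% of the cluster in i4F 2, 16.2% in i4F 1, 8.40% in i4F 3, 0.315% to 2.39% in CER and 0 of 44 and 0 of 365 cells in WT. In i4F 3, 51.9% of cells held none of the genes and 27.5% held 3 or more, against 2.57% and 83.0% in i4F 2. Ductal cells, given for comparison, held a mean of 0.355 genes in i4F 1 and 0.323 in i4F 2 at the same depth. What part of this was free RNA was not tested. Chil3 was found in 43.9% and 76.9% of thinned macrophage-led cells of i4F 1 and 2 (53.7% and 79.8% before thinning), and in 2.34% and 3.08% of thinned ductal cells.

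Chil3 was about as frequent in cells with Arg1 as in the others in i4F 1 and 2, and less so in some other units. In i4F 1, 43.5% of thinned cells with Arg1 and 45.1% of those without it held Chil3, and in i4F 2 these shares were 77.5% and 75.9%. In i4F 3 they were 8.33% of 12 cells with Arg1 and 21.01% of the others. They were 24.2% and 23.98% in Macrophages_1 and 31.1% and 35.3% in Macrophages_2 of CER 1, and 27.5% and 34.4% in Macrophages_1 and 21.2% (of 113 cells) and 40.1% in Macrophages_2 of CER 2. The CER clusters differed in both genes: Arg1 was at 613 and 726 CPM in Macrophages_1 and at 373 and 381 CPM in Macrophages_2, and Chil3 was at 391 and 668 CPM in the former and 783 and 732 CPM in the latter.

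**Figure D3:**
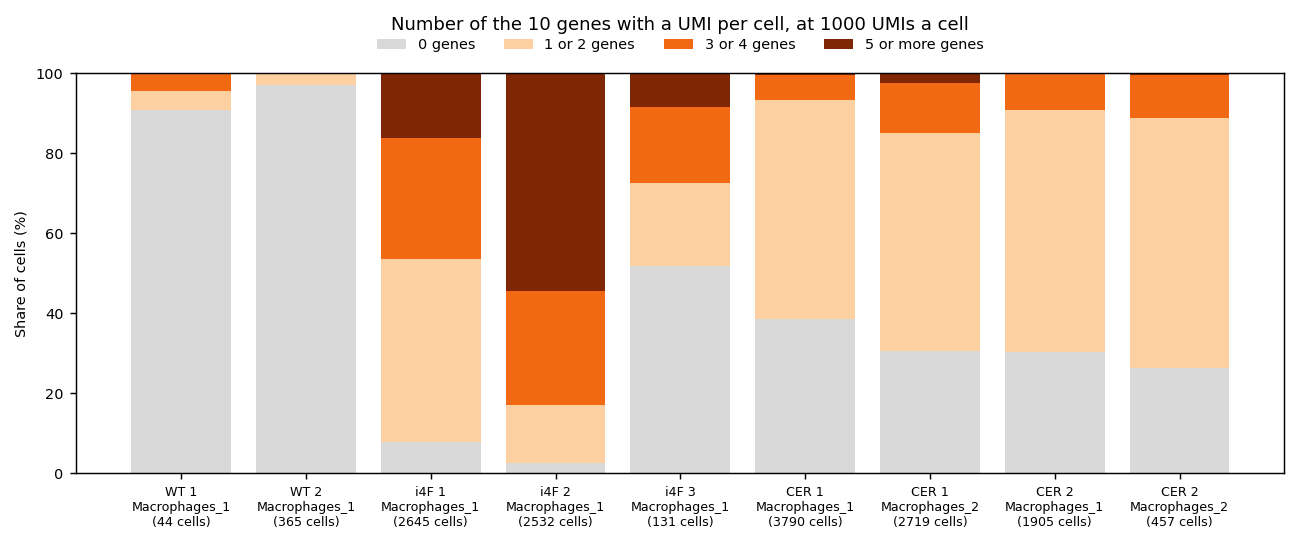
Share of macrophage-led cells (percent, y axis) with 0, 1 or 2, 3 or 4, and 5 or more of the 10 genes after thinning to 1000 UMIs, by mouse and cluster (x axis, with the number of cells kept). The darkest part is 54.4% of cells in i4F 2, 16.2% in i4F 1 and at most 8.40% in the other columns.

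Neutrophil-led cells shared Chil3, Slpi and Hp with the macrophage-led cells but not Arg1. In i4F 1 and i4F 2 they also held Saa3, at 1360 and 1427 CPM. These cells were 359, 435 and 15 in i4F and 630 and 84 in CER, and no such cluster was annotated in WT. Slpi differed little between the groups, at 2351, 2965 and 2877 CPM in i4F and 2447 and 2217 CPM in CER. Chil3 was at 8108, 6446 and 4185 CPM in i4F and 75.4 and 432 CPM in CER. Immune cells such as these are among those that chose the genes, and nothing is read from these differences. Hp was at 2544, 3472 and 2204 CPM in i4F and 984 and 1267 CPM in CER. Arg1 was at 79.3, 61.4 and 0 CPM in i4F and 4.43 and 0 CPM in CER, and Vcan was at or below 32.7 CPM in the 5 mice. These cells held only 26765 UMIs in all in i4F 3 and 34732 in CER 2. The low values of these 2 mice are therefore no bounds. Cells with at least 2% of their UMIs on S100a8 and S100a9 made up 72.2% to 90.3% of these clusters and at most 1.94% of a macrophage-led cluster. The MHC II-led cells were rich in Plac8, with 973, 508 and 274.8 CPM in i4F, 527 and 670 CPM in CER and 628 and 335 CPM in WT, and in i4F they also held Arg1 at 525, 1103 and 284 CPM, against 86.8 and 81.1 CPM in CER and 0 in WT. In WT 1 the 1493 CPM of Chil3 in these cells came from 4 of 59 cells, of which 1 held 300 of 552 UMIs.

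In the WT pancreas some of the genes were also found in cells other than myeloid cells. Arg1, which in WT 1 was higher in macrophage-led cells, was found in the endocrine cluster led by Ppy, Pyy and Sst, where 43 of 56 cells of WT 1 (76.8%, exact 95% interval 63.6% to 87.0%) and 45 of 90 cells of WT 2 (50%, 39.3% to 60.7%) held a UMI, at 443 and 235 CPM. At 1000 UMIs per cell these shares were 32.7% and 21.6%, against 0.149% and 0.350% of WT ductal cells. Endocrine cells gave 72.7% of all Arg1 UMIs in WT 2 and 34.2% in WT 1. Ly6c2 was a lymphocyte transcript in WT: the NK and T cell clusters held 345 and 270 CPM, and gave 35.6% and 39.9% of its UMIs. In the NK and T cells of i4F it was at 149, 116 and 164 CPM, below both WT mice. Plac8 was at 1649 and 1089 CPM in B cells of WT and at 862, 677 and 849 CPM in those of i4F. Slpi was at 12383 and 10326 CPM in the mesothelium of WT and at 8877 and 14422 CPM in that of CER. In i4F, Slpi stood at 15328 and 15006 CPM in the 144 and 126 cells of Activated_Pancreatic_Stellate_2 of i4F 1 and 2, a cluster with the mesothelial genes Upk3b and Dmkn among its leading genes, and at 835 CPM in its 1167 cells of i4F 3. Saa3 in the mesothelium was at 597 and 718 CPM in CER against 9.40 and 1.95 CPM in WT. Some isolated high values rested on single cells: 1 B cell of i4F 2 held 366 of that cluster's 395 Saa3 UMIs, and 1 cell of the immunoglobulin-led Follicular_B_lymphocytes cluster of i4F 3 held 1726 of 3616 Slpi UMIs.

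The 10 genes were tested in cells outside the immune clusters; which values chose the genes is known only in part, so for 7 of the 10 genes it is not established that these cells played no part in the choice. UMIs were summed per mouse over stellate, acinar, ductal and endothelial cells and compared by edgeR's quasi-likelihood test across all 7 mice, with Benjamini-Hochberg adjustment over all genes tested. The stellate cells compared were of different clusters: in WT, 3370 of 3645 were of Quiescent_Pancreatic_Stellate_1 and 2, and the rest of an activated cluster led by the contractile genes Acta2, Tagln and Myh11, while all those of i4F and CER were of activated clusters. Differences between the groups and between these clusters cannot be told apart. Of the 7 genes with a UMI in WT stellate cells, 6 were called higher in i4F (adjusted p under 0.05) and Ly6c2 was not, against 12% of 14818 genes called higher and 8.58% called lower. Chil3, F10 and Serpinb2 were called too, 9 of 10 genes in all. They had no UMI in WT and passed the filter on low counts only through the other groups. Saa3, Arg1 and Ly6c2, with WT means of 0.922, 0.219 and 0.500 CPM, were also too scarce in WT to pass it without those groups. The calls of Saa3 and Arg1, in i4F and in CER, therefore share this limit. In CER against WT, Saa3, Slpi and Arg1 were called higher, 3 of 10, against 9.99% of genes. Both comparisons share the WT mice. The counts changed with the mice used. In i4F, 0 genes were called without WT 1 or WT 2, 2 without i4F 2, CER 1 or CER 2, 4 without i4F 1 and 9 without i4F 3, where 47.8% of all genes were called. In CER, 0 were called without WT 1, 1 without WT 2, CER 1 or CER 2, 3 without i4F 1, 2 without i4F 2, and 8 without i4F 3, where 39.7% of all genes were called. Over the mice left out, the share of all genes called ran from 0.0637% to 47.8% in i4F and from 0.0463% to 39.7% in CER. Saa3 was at 0.749 and 1.10 CPM in WT, at 156, 280 and 105 CPM in i4F, and at 281 and 312 CPM in CER. Its log2 fold change was 7.69 ± 0.58 (SE, adjusted p = 0.00482) in i4F and 8.41 ± 0.61 (adjusted p = 0.00315) in CER.

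Saa3 was thus near the floor in stellate cells of both WT mice and at 105 CPM or more in each treated mouse, with no overlap. Vcan was at 172 and 178 CPM in WT and already an abundant stellate transcript there. It was at 449, 553 and 229 CPM in i4F (log2 fold change 1.38 ± 0.36, adjusted p = 0.0398) and at 357 and 401 CPM in CER (1.26 ± 0.38, adjusted p = 0.0596). Plac8 was at 306 and 205 CPM in WT, 587, 917 and 495 CPM in i4F (1.55 ± 0.31, adjusted p = 0.0252), and 430 and 559 CPM in CER (1.116 ± 0.33, adjusted p = 0.056). Each i4F and CER mouse was above both WT mice for these genes, although the CER differences missed the threshold. This held for 8 of the 10 genes, 3 of them with no UMI in WT, and for 16.4% of the 14031 genes with a mean of at least 1 CPM in stellate cells. Hp was at 56.8 and 90.9 CPM in WT and at 210, 497 and 572 CPM in i4F (2.67 ± 0.52, adjusted p = 0.0242). In i4F 3, 1 stellate cell held 715 of the 2312 Hp UMIs. In CER, Hp was at 47.0 and 77.8 CPM, and its log2 fold change was -0.13 ± 0.51 (adjusted p = 0.873). The i4F mice were above all WT and CER mice for Hp and Slpi, against 5.19% of all genes. For Hp the difference between i4F and CER was not tested.

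Slpi in stellate cells was at 3.56 and 1.64 CPM in WT, 295, 390 and 627 CPM in i4F, and 14.6 and 9.19 CPM in CER. Its log2 fold change was 2.44 ± 0.53 in CER (adjusted p = 0.0296) and 7.62 ± 0.62 in i4F (adjusted p = 0.00489), where it was 3.19 (adjusted p = 0.0089) without Activated_Pancreatic_Stellate_2, whose cells of i4F 1 and 2 carried mesothelial transcripts. In the remaining Activated_Pancreatic_Stellate_1 cluster, Slpi was at 13, 36 and 2.96 CPM in i4F. Saa3 in that cluster was at 156, 283 and 295 CPM in the 3 i4F mice, more even than in the whole stellate group, where i4F 3 contributed mostly Activated_Pancreatic_Stellate_2 cells at 41.6 CPM. Chil3, F10 and Serpinb2 had 0 UMIs in WT stellate cells, so their levels in i4F were at least 237-fold, 21.9-fold and 15.0-fold higher than a floor of 3 UMIs over both WT mice. These means rested on i4F 1 and 2: i4F 3 held 5, 2 and 1 UMIs. Without i4F 2 the bounds were 68.6-fold, 10.7-fold and 10.2-fold. In CER they were at least 91.9-fold, 5.66-fold and 6.99-fold above that floor, where F10 was at least 3.21-fold without CER 1. Arg1 was at 0 and 0.438 CPM in WT, 42.5, 54.3 and 8.91 CPM in i4F (7.14 ± 1.13, adjusted p = 0.0184) and 26.0 and 18.4 CPM in CER (6.47 ± 1.15, adjusted p = 0.0197). Its 4 WT UMIs were all of WT 2. With 1 mouse left out its log2 fold change ran from 6.39 to 12.4 in i4F and from 5.72 to 11.7 in CER. Ly6c2 stayed scarce, at 0.562 and 0.438 CPM in WT, 0.924, 3.97 and 2.23 CPM in i4F (2.39 ± 0.83, adjusted p = 0.0768) and 1.08 and 0.533 CPM in CER.

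**Figure D4:**
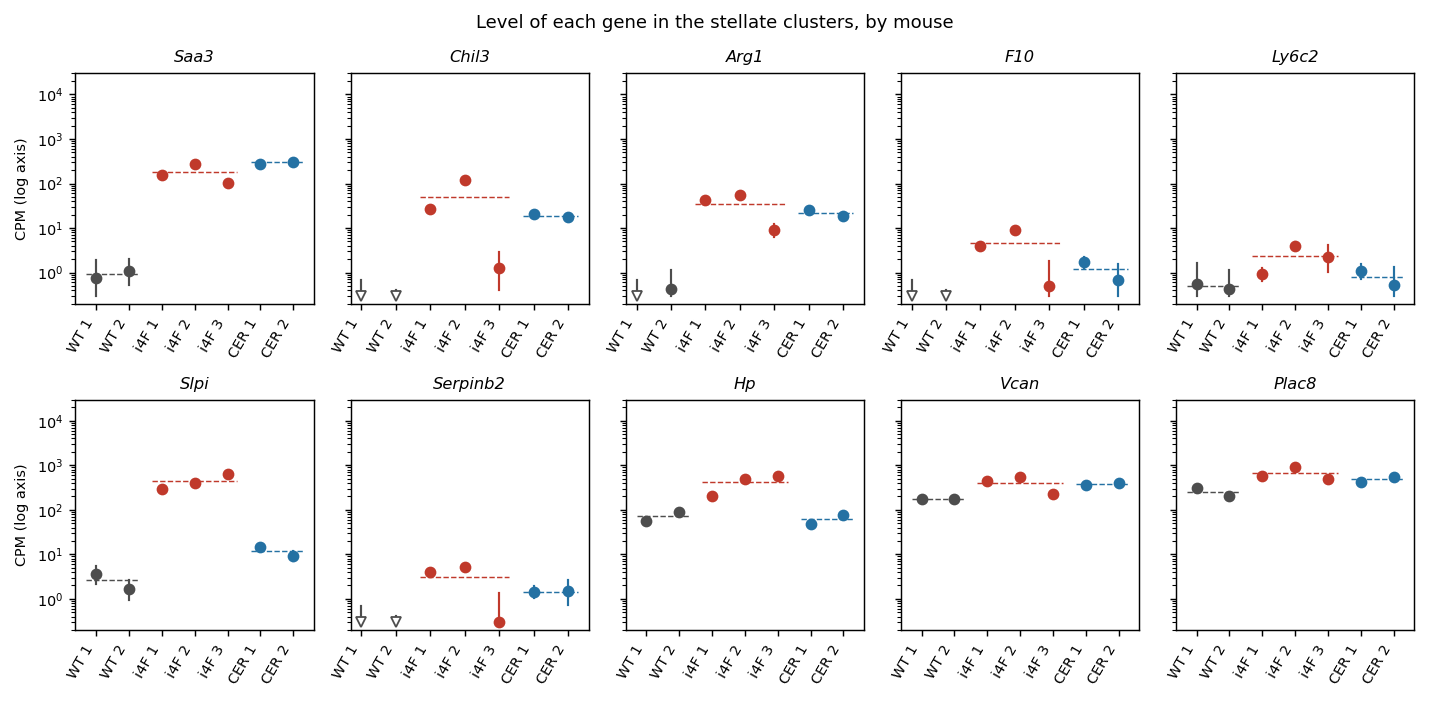
CPM (log axis) of each gene in stellate cells of each mouse, with exact 95% Poisson intervals (vertical lines), group means (dashed lines) and open triangles for 0 UMIs; values under 0.3 CPM are drawn at 0.3. Saa3 is at 0.749 and 1.10 CPM in WT and between 105 and 312 CPM in the 5 treated mice, Vcan and Plac8 are at 172 CPM or more in each mouse, and Hp is higher in the i4F mice than in the WT and CER mice.

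Markers of macrophages and of neutrophils moved with these calls. The part of the neutrophil markers was not tested. The 8 neutrophil markers summed to 0.562 and 0.986 CPM in stellate cells of WT. They summed to 33.9, 51.7 and 92.5 CPM in i4F, and to 37.8 and 20.9 CPM in CER. Of the 4 that were tested, 4 were called higher in i4F and 3 in CER, against 12% and 9.99% of genes. These 4 were too scarce in WT and passed the filter on low counts only through the other groups, which limits these calls. Of the 8 macrophage markers, 7 were called higher in each comparison. The 8 macrophage markers, led by Lyz2 and the C1q genes, summed to 14.4 and 39.8 CPM in stellate cells of WT, 402, 308 and 199 CPM in i4F, and 1447 and 936 CPM in CER. UMIs of each gene per Chil3 UMI were compared between stellate and macrophage-led cells of the same mouse, in 4 mice (i4F 1, i4F 2, CER 1 and CER 2). Arg1 per Chil3 UMI in stellate cells was 0.896 to 1.29 times that in macrophage-led cells, F10 1.04 to 1.71 times, and Ly6c2 0.807 to 1.53 times. Chil3 itself, per Lyz2 UMI, was 0.858 to 1.33 times. Arg1, F10, Ly6c2, Chil3 and Lyz2 stood in similar proportions in both cell groups of these 4 mice. In CER 2 the stellate values rested on only 4 Ly6c2 and 5 F10 UMIs. In i4F 3, with 5 Chil3 UMIs in stellate cells, the folds were taken per Lyz2 UMI and were 3.77 for Arg1, 5.29 for Ly6c2, 0.665 for F10 and 0.603 for Chil3. In WT, on 3 and 4 Ly6c2 UMIs in stellate cells, those for Ly6c2 were 95.05 and 92.4, and that for Arg1 in WT 2, on 4 UMIs, was 52.8. Serpinb2 per Chil3 UMI was 2.76 to 13.7 times higher in stellate cells, Slpi 2.30 to 23.3 times, Saa3 6.13 to 25.9 times, Hp 20.7 to 41.6 times, Plac8 98.2 to 245 times and Vcan 107 to 790 times.

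**Figure D5:**
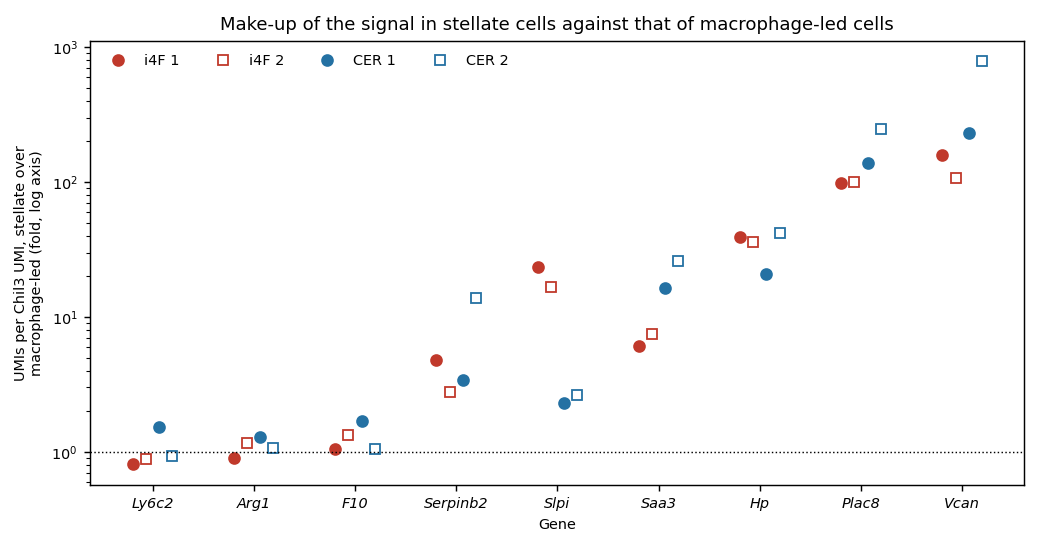
UMIs of each gene per Chil3 UMI in stellate cells, divided by the same ratio in macrophage-led cells of the same mouse (fold, log axis), for i4F 1 and 2 (red) and CER 1 and 2 (blue); the dotted line marks the same proportion in both. Ly6c2, Arg1 and F10 lie between 0.807 and 1.71, and Saa3, Hp, Plac8 and Vcan lie at 6.13 or above.

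The stellate calls were repeated without cells that held UMIs of at least 3 of the 8 macrophage markers. Then 7 of 10 genes were called in i4F, among 18.7% of all genes, and Chil3 and F10 were no longer called. Chil3 was then at 10.8, 58.7 and 0.251 CPM in i4F, against 27.2, 119 and 1.24 CPM with all cells, and F10 at 1.45, 4.12 and 0.251 CPM, against 3.95, 9.20 and 0.495 CPM. In CER, Saa3 (log2 fold change 8.38, adjusted p = 0.00607) and Arg1 (adjusted p = 0.0387) were called, among 15% of all genes, and Slpi was not (adjusted p = 0.236). Arg1 was then at 3.90 and 2.18 CPM in CER, against 26.0 and 18.4 CPM with all cells, and at 18.2, 21.4 and 8.55 CPM in i4F, against 42.5, 54.3 and 8.91 CPM. With the library name series as a term, 0 of 10 genes were called in either comparison by edgeR among 0.108% and 0.0472% of all genes, and 9 and 5 passed an unadjusted p under 0.05, among 32.4% and 25.8% of all genes, although the log2 fold changes of Saa3 were 8.13 (adjusted p = 0.0569) and 8.14 (adjusted p = 0.0694). The series is AL for WT 1 and the i4F mice and AM for WT 2 and the CER mice, so only WT has 1 mouse in each. Differences between i4F and CER, here and in the other cells, cannot be told apart from the series.

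Acinar cells, which make the digestive enzymes, gave 0 of 10 calls in i4F and in CER, with 0.0808% and 0.0359% of 11134 genes called by edgeR. At an unadjusted p under 0.05, 9 of the genes passed in i4F and 2 in CER, against 25.1% and 21.9% of all genes, and DESeq2 called 7 and 1, against 9.95% and 8.66%. These counts include Chil3, F10, Ly6c2 and Serpinb2, which had no UMI in WT acinar cells and passed the filter on low counts only through the other groups. Saa3, Hp and Arg1, with 1 UMI each in WT, also passed it only through those groups. The cells under this name were not alike in the i4F mice: i4F 1 and 2 had 583 and 746 cells in Acinar_2 and 11 and 61 in Acinar_1, and i4F 3 had 59 and 2071. Acinar_2 was led by Ly6g6c, Sprr2b, Slurp1 and Krt13, so the values of i4F 1 and 2 and of i4F 3 are of unlike clusters. No acinar marker was among its 10 leading genes, but only 5 of the 11 markers sought are listed in the data. Saa3 was at 225 and 88.8 CPM in acinar cells of i4F 1 and 2 and at 2.43 CPM in i4F 3, against 1.30 and 0 CPM in WT and 65.5 and 23.95 CPM in CER. Without i4F 3, 10 genes were called in i4F and 4 in CER, among 32.7% and 19.4% of all genes. Serpinb2 was at 40.5 and 24.2 CPM in acinar cells of i4F 1 and 2 against 0.693 CPM in i4F 3, up to 0.679 CPM in CER and 0 in WT, and its UMIs per Chil3 UMI in acinar cells were 0 to 35.1 times those in macrophage-led cells over i4F 1, i4F 2, CER 1 and CER 2. The macrophage markers summed to 872, 468 and 233 CPM in acinar cells of i4F, 2358 and 1295 CPM in CER, and 22.2 and 102 CPM in WT.

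Ductal cells gave 0 calls among the 7 genes that passed the filter on low counts. Over all 11619 genes, 0.00861% were called in i4F and 2.88% were called higher in CER. F10, Ly6c2 and Serpinb2 did not pass the filter. Chil3, with no UMI in WT, and Saa3, Slpi, Vcan, Hp and Arg1 needed the other groups to pass it, and only Plac8 did not. At an unadjusted p under 0.05, 6 of 7 passed in i4F and 3 of 7 in CER, against 17.4% and 30.7% of all genes, and DESeq2 called 6 and 3, against 3.21% and 9.81%. Slpi was the most abundant of the genes there, at 213, 353 and 20.2 CPM in i4F and 169 and 129 CPM in CER, against 4.38 and 58.5 CPM in WT. The WT 2 value rested on 1 cell, with 238 of 245 UMIs. Without i4F 3, 7 of 7 genes were called in i4F and 6 of 7 in CER, among 26.5% and 32.2% of all genes. The macrophage markers summed to 17.4 and 71.6 CPM in ductal cells of WT, 930.3, 499 and 143 CPM in i4F, and 1459 and 1123 CPM in CER, and the neutrophil markers to 0.675 and 0.716, 129.7, 134 and 4.33, and 44.7 and 11.1 CPM. Their part in these values was not tested.

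In endothelial cells 8 of the 10 genes were tested, among them Chil3, which had no UMI in WT and was not called. All 8, with WT means of 7.45 CPM or less, passed the filter on low counts only through the other groups. This includes the genes that were called. Slpi (log2 fold change 3.16 ± 0.54, adjusted p = 0.0427) and Plac8 (2.90 ± 0.48, adjusted p = 0.0361) were called higher in i4F, against 0.699% of 8153 genes. Saa3, Slpi, Plac8 and Arg1 were called higher in CER, against 3.54% of genes, with Plac8 at 4.77 and 6.91 CPM in WT and 63.8 and 54.0 CPM in CER (3.43 ± 0.49, adjusted p = 0.00634). The macrophage markers summed to 819, 661 and 193 CPM in endothelial cells of i4F, 7155 and 4952 CPM in CER, and 37.7 and 57.3 CPM in WT. Without cells that held at least 3 of these markers, 0 of the genes were called in either comparison by edgeR, among 0.782% of all genes in i4F and 0.161% in CER, and 6 and 3 passed an unadjusted p under 0.05, among 17.4% and 15% of all genes. The estimate for Plac8 differed little there (log2 fold change 3.58, adjusted p = 0.0514, in CER and 2.87, adjusted p = 0.054, in i4F), while Slpi in CER went to 0.15 (adjusted p = 0.95).

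Over all cells of each library, where fewer cells of a type and less RNA per cell cannot be told apart, the genes are given as levels with no test. Saa3 was at 25.7 and 1.16 CPM in WT, 393, 866 and 34.7 CPM in i4F, and 307 and 289 CPM in CER. Arg1 was at 30.7 and 8 CPM in WT, 529, 881 and 42.8 CPM in i4F and 199.96 and 217 CPM in CER. Slpi overlapped between the groups, at 493 and 281 CPM in WT, 365, 694 and 445 CPM in i4F and 368 and 185 CPM in CER. Serpinb2 had 1 UMI in the 2 WT libraries together, and stood at 14, 39 and 3.17 CPM in i4F and 5.54 and 2.11 CPM in CER.

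Other genes of the same cells were tested as lists. These lists were chosen with earlier results of these data known, so their counts are no independent support for the 10 genes. Of 24 classical monocyte genes, 0 were called over all cells in i4F by edgeR, where 0% of 18340 genes were called, although 21 passed an unadjusted p under 0.05, against 34.8% of all genes, DESeq2 called 20, against 23.8%, and the median log2 fold change was 2.44, against 0.04 over all genes. In CER, 8 of 24 were called higher, against 5.15% of genes called higher and 3.94% called lower, with a median of 2.38 against -0.06. Each of these calls was lost without WT 1, WT 2, i4F 2, CER 1 or CER 2, and with the library name series as a term, where edgeR called 0 genes of all and 15 to 19 of the 24 passed an unadjusted p under 0.05, while 3 were called without i4F 1 (5.62% of all genes) and 20 without i4F 3 (46.4%). Those with the smallest p were Ccr2 (log2 fold change 2.86 ± 0.37, adjusted p = 0.0307), the lysozyme gene Lyz2 (3.86 ± 0.59, adjusted p = 0.0326), Clec4e and Msrb1. Of 14 resident macrophage genes, 0 were called in i4F and 6 were called higher in CER, Cd68, Adgre1, C1qc and C1qb among them. Of 25 partners and relatives of the 10 genes (receptors, enzymes of arginine metabolism, coagulation and plasminogen factors), 22 were tested over all cells: 0 were called in i4F, and in CER 4 were called higher, among them Odc1 (1.06 ± 0.18, adjusted p = 0.0334), which uses the ornithine that arginase makes, and F7, while Ly6c1 was called lower (-2.88 ± 0.60, adjusted p = 0.0437). The calls of these 2 lists in CER were lost in the same fits as those of the monocyte genes.

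In stellate cells, 15 of 24 classical monocyte genes were called higher in i4F and 13 of 24 in CER, against 12% and 9.99% of genes. Ccl9, Lyz2 and Clec4e were among the smallest p in both. Of the 24, 3 had no UMI in WT and passed the filter on low counts only through the other groups. Of 21 partners tested, 8 were called higher and 2 lower in i4F, and 6 were called higher in CER, against 12% higher and 8.58% lower in i4F and 9.99% higher in CER over all genes. Ass1, an enzyme of the urea cycle, was among them in both (2.71 ± 0.31, adjusted p = 0.0115, in i4F, and 2.29 ± 0.32, adjusted p = 0.0133, in CER). So was Plaur, the receptor for the plasminogen activator urokinase (2.46 ± 0.30, adjusted p = 0.0143, and 2.08 ± 0.31, adjusted p = 0.0146). Chil1, a relative of Chil3, and F5, a cofactor of factor X, were called higher in i4F, and tissue factor F3 and Tlr4 lower. The median log2 fold changes with genes at 0 in WT put at their bound were 3.26 and 3.27 for the monocyte list and 0.93 and 0.44 for the partners, in i4F and CER, against 0.02 and -0.04 over all genes. The list calls depended on the mice. Without WT 1 or WT 2, and with the library name series as a term, edgeR called 0 monocyte genes and 0 partners in either comparison, among 0.0463% to 0.179% of all genes, while 14 to 19 monocyte genes and 7 to 12 partners passed an unadjusted p under 0.05. In i4F, 0 of both were called without i4F 2, among 0.188% of all genes. Without i4F 1, 4 monocyte genes and 5 partners were called higher, among 2.56% of all genes. Fits without CER 1 or CER 2 leave 1 mouse in that group, and most of the list calls were lost there in both comparisons. Without cells with 3 macrophage markers, 13 of 22 monocyte genes were called higher in i4F and 6 of 22 in CER, among 18.7% and 15% of all genes, and 9 and 5 of 19 partners. Lyz2 of the monocyte list is itself 1 of these markers, so its part in these counts is set by the choice of cells.

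In acinar cells 0 genes of the lists were called in either comparison, among 0.0808% and 0.0359% of all genes. In ductal cells 0 were called in i4F, among 0.00861% of all genes. Without i4F 3, 18 monocyte genes were called higher in acinar cells of i4F and 20 in ductal cells of i4F, among 32.7% and 26.5% of all genes. In ductal cells of CER, 4 of 21 monocyte genes, 3 of 9 resident macrophage genes and 0 of 14 partners were called higher, against 2.88% of genes. By edgeR 0 genes of the lists were called there without WT 1, WT 2, CER 1 or CER 2 or with the library name series as a term (11 to 16 monocyte genes passed an unadjusted p under 0.05), and 19 of 21 monocyte genes without i4F 3, among 32.2% of all genes. In endothelial cells 1 of 20 monocyte genes, 4 of 11 resident genes and 1 of 11 partners were called higher in i4F, against 0.699% of genes, and 16 of 20, 10 of 11 and 4 of 11 in CER, against 3.54%. All 8 macrophage markers were called higher there in CER. Without cells with 3 of these markers, 0 of 16, 2 of 7 and 1 of 10 were called in CER, among 0.161% of all genes, and 12, 5 and 5 passed an unadjusted p under 0.05. The markers include Lyz2 of the monocyte list and Cd68, Adgre1, C1qb and C1qc of the resident list. The loss of calls of such genes is thus partly set by the choice of cells. Fits without CER 1, WT 1 or WT 2 leave 1 mouse in a group. In each of them fewer monocyte genes and partners were called in CER, while most resident genes were still called. Over all genes, 0.103% and 0.104% were called in i4F without i4F 1 or i4F 2. In i4F, when any 1 mouse other than i4F 3 was left out, the counts were 0 monocyte genes, 1 or 2 resident genes and 0 or 1 partners, and without i4F 3 they were 19 of 22, 6 of 11 and 5 of 12, among 14.3% of all genes. Whether these counts differ between i4F and CER was not tested.

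The genes whose pattern was most like each of the 10 were sought over 83 units of 1 mouse and 1 cluster with at least 50 cells, by Pearson's r of log2(CPM + 10) over 9277 genes. Units of a mouse share its library and its free RNA, so the values are a description. F10 had the closest matches, Fcgr4 (r = 0.93), Il1a (0.92) and Clec4d (0.90). Chil3 was closest to Cxcl3 (0.82), Clec4d (0.82) and Saa3 (0.81). Saa3 was closest to Chil3, Cxcl3 (0.77) and Ccl6 (0.75), and Hp to Tnfaip2 (0.85), Cxcl3 (0.80) and Ptgs2 (0.79). Arg1 was closest to Ms4a6d (0.77), Ms4a8a (0.76) and the complement gene C1qa (0.75). Vcan was closest to Hk2 (0.80), Mmp19 (0.79) and Pla2g4a (0.78), and Plac8 to Ifi27l2a (0.78), Lsp1 (0.72) and Gm43430 (0.70). Ly6c2 was closest to Gm1966 (0.85), Ikzf1 (0.84) and Itgb7 (0.84). Slpi was closest to Dhrs9 (0.72), Chil1 (0.69) and the mesothelial gene Upk1b (0.65), and Serpinb2 to Ccl24 (0.74), Oas3 (0.67) and Ttc39c (0.66). Among pairs of the 10 genes, r ran from -0.01 (Ly6c2 and Vcan) to 0.81 (Saa3 and Chil3).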

How the data were processed

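Cells of whole pancreata were captured in droplets, 1 library per mouse. Per the labels and the methods, the authors aligned reads to mm10 with Cell Ranger, clustered cells in Seurat and used SoupX against free RNA; whether the deposited tables precede or follow SoupX is not given in the sources used here. The deposited values are UMI counts per gene and cell, with the authors' cluster names. The libraries held 15469018 to 64784216 UMIs, and every deposited cell was kept; no doublet caller was run. UMIs were summed per mouse and cell group (at least 20 cells) and tested two-sided with edgeR 4.0.16 (R 4.3.3; TMM, filterByExpr, group as the term, Benjamini-Hochberg), after a test on simulated data. DESeq2 1.42.0, other filters and left-out mice were alternatives. Each mouse is 1 replicate. The recounts of the lists and of groups that do not overlap (genes with a mean of at least 1 CPM) were added after seeing the data. Named genes were all 10 genes, up to 4 per list and direction with the smallest p, and the 3 most alike by Pearson's r among genes with at least 50 CPM in a unit. Leading genes of clusters, and genes of single cells, were named after their values were seen. The 10 genes and the lists were chosen with earlier results of these data known. Promoters are from RefSeq on GRCm38.p6. The calls of the resident macrophage list in stellate cells are not reported here.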

Additional observations from a re-analysis of the deposited data

How the results depend on the processing

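With 2 or 3 mice per group, the counts of called genes depended on the mice and settings used. Leaving out 1 mouse gave 0 to 10 genes in i4F and 0 to 4 in CER in acinar cells, 0 to 7 and 0 to 6 in ductal cells, 0 to 9 and 0 to 8 in stellate cells, 0 to 6 and 0 to 6 in endothelial cells, and 0 to 23 and 0 to 20 of the monocyte list over all cells; the upper ends are without i4F 3. The share of all genes called in these fits ran from 0% to 32.7% and 19.4% (acinar), 0% to 26.5% and 32.2% (ductal), 0.0637% to 47.8% and 0.0463% to 39.7% (stellate), 0.103% to 14.3% and 0.271% to 11% (endothelial), and 0% to 49.8% and 46.4% (all cells). DESeq2 called 7 and 1 genes in acinar cells (i4F and CER), 6 and 3 in ductal cells, 8 in stellate cells of CER, 6 in endothelial cells of i4F, and 20 and 18 of the list, where 9.95% and 8.66%, 3.21% and 9.81%, 24.8%, 3.58%, and 23.8% and 30% of all genes were called. With no filter on low counts these were 10 and 6 (acinar), 9 and 7 (ductal), 8 (stellate, CER), 7 and 8 (endothelial), and 17 and 18 of the list, with 8.34% and 6.26%, 5.44% and 10.5%, 14.3%, 4.18% and 5.74%, and 6.16% and 8.4% of all genes called. With the 2 groups alone they were 4 (acinar, CER), 6 (ductal, CER), 2 and 7 (stellate), 0 (endothelial, i4F) and 21 of the list in CER, with 23.9%, 28.5%, 0.757% and 38.8%, 0.193% and 46.1% of all genes called. Without Acinar_1 10 and 2 genes were called in acinar cells, without Activated_Pancreatic_Stellate_2 8 in stellate cells of CER, and without TMM 12 of the list in i4F, with 27.5% and 15.2%, 38.9% and 13.1% of all genes called; the exclusions of these clusters were chosen after seeing the data. The library name series as a term gave 0 and 0 in stellate and in endothelial cells and 0 of the list in CER. Of all genes, 0.108% and 0.0472%, 0.564% and 1.34%, and 0% were called in these fits. In endothelial cells 7 and 5 of 8 genes then passed an unadjusted p under 0.05, against 15.6% and 12.6% of all genes. Leaving out cells with 3 macrophage markers gave 0 and 0 in endothelial cells, with 0.782% and 0.161% of all genes called. The causes were not tested. At 2000 UMIs per cell the macrophage-led cells of CER held a mean of 1.51 of the genes, against 1.11 at 1000. Serpinb2 in acinar cells, with 0 UMIs in WT and 4 in CER, has no interpretable fold: its fitted log2 fold change, which is no bound, ran from 0.00 without CER 1, where no UMI is left in CER, to 3.94 without CER 2. Hp in stellate cells of CER went from a log2 fold change of -0.13 to 0.37 without WT 2, 0.14 without CER 1 and -0.50 without WT 1.

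Mice share a replicate number across groups, with no stated pairing. Deviations of same-numbered mice from their group means had correlations of -0.07 (WT 1 and i4F 1), -0.48 (WT 1 and CER 1), -0.48 (WT 2 and CER 2), 0.13 (i4F 1 and CER 1), -0.0044 (WT 2 and i4F 2) and -0.086 (i4F 2 and CER 2). The 2 values of -0.48 are 1 result, because deviations in groups of 2 mice are equal and opposite. With the replicate number as a block, 10 and 5 genes were called in acinar cells, 7 and 7 in ductal cells, 7 in stellate cells of CER, 6 in endothelial cells of i4F, and 23 and 19 of the list, with 29.6% and 16.7%, 19.2% and 23.5%, 35.3%, 9.92%, and 44.4% and 40.5% of all genes called. Only i4F 3 has the replicate number 3, so the block fits that mouse alone and takes it out of the comparison. These counts therefore say nothing of a pairing.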
